A study of Mus musculus with 10 samples.

Results

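The circadian clock genes described here are 10 transcripts of the daily timekeeping system: Arntl, Clock, Per1, Per2, Per3, Cry1, Cry2, Nr1d1, Nr1d2 and Dbp. They were chosen by name from 19096 genes that had a named probe, and 17 of the 41174 probes on the array belonged to them. Where a gene had several probes it was represented by the one with the highest mean over the 10 arrays, and all 10 genes had a probe well above background on every array. The samples were 5 whole lungs of wild type (WT) mice and 5 whole lung tumours labelled squamous cell carcinoma (SCC), all from 13-month-old animals of strain B6.129. Both groups carried floxed Lkb1 alleles. WT mice were Lkb1f/f, and the tumours came from CCSPiCreLkb1f/f mice, in which a Cre recombinase driven by the Clara cell secretory protein promoter deletes Lkb1, a tumour suppressor kinase, in airway epithelium. A lung tumour therefore holds deleted cells together with stroma and immune cells that keep the gene, and it was set against whole lung rather than airway epithelium. The labels give neither the sex of the animals nor the time of day at which tissue was taken, and clock transcripts move through the day, so hour of collection and tissue cannot be told apart in the differences below. RNA from each sample was hybridised to one single-colour Agilent array, and values are log2 of the quantile-normalized intensity, so that 1 unit is a 2-fold difference and levels are compared between arrays for the same probe only.

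The clock is a feedback loop of transcription. CLOCK and BMAL1, the product of Arntl, bind DNA as a pair at E-boxes and activate the Per, Cry, Nr1d and Dbp genes. PER and CRY proteins then return to the nucleus and repress that pair. The products of Nr1d1 and Nr1d2, REV-ERB alpha and beta, repress Arntl and Nfil3 at ROR response elements (ROREs), where the ROR factors activate, and DBP, TEF and HLF activate genes at D-boxes, where NFIL3 represses. In the lung the clock is known to run in airway club cells, among others, and to shape the inflammatory response to the time of day.

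The 10 genes moved in both directions. The positive factors Arntl and Clock were higher in SCC than in WT, Arntl by 4.59-fold and Clock by 1.33-fold, whereas Per1, Per2, Per3, Cry2, Nr1d1, Nr1d2 and Dbp were lower, from 1.42-fold for Per2 to 4.25-fold for Dbp. Cry1 was the one gene of the 10 that did not pass the test. With limma fitted on all 30374 tested probes and an adjusted p below 0.05 required, 9 of the 10 genes passed, 2 higher and 7 lower. Of all tested probes, 49.0% passed, 22.4% higher and 26.6% lower. Adding a 2-fold requirement left 6 of the 10 genes, Arntl higher and Per3, Cry2, Nr1d1, Nr1d2 and Dbp lower, against 22.9% of tested probes, 9.92% higher and 13.0% lower. The 5 SCC values lay entirely to one side of the 5 WT values for 7 of the 10 genes, and this held for 37.3% of tested probes. The median difference of the 10 genes was -0.996 log2 units and their median absolute difference 1.28, beside -0.09 and 0.50 over all tested probes. With slide as a fixed block, which left 1 WT array and 3 SCC arrays on the only slide shared by both groups, 5 of the 10 genes passed, Arntl higher and Per1, Per2, Cry2 and Dbp lower.

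**Figure D1:**
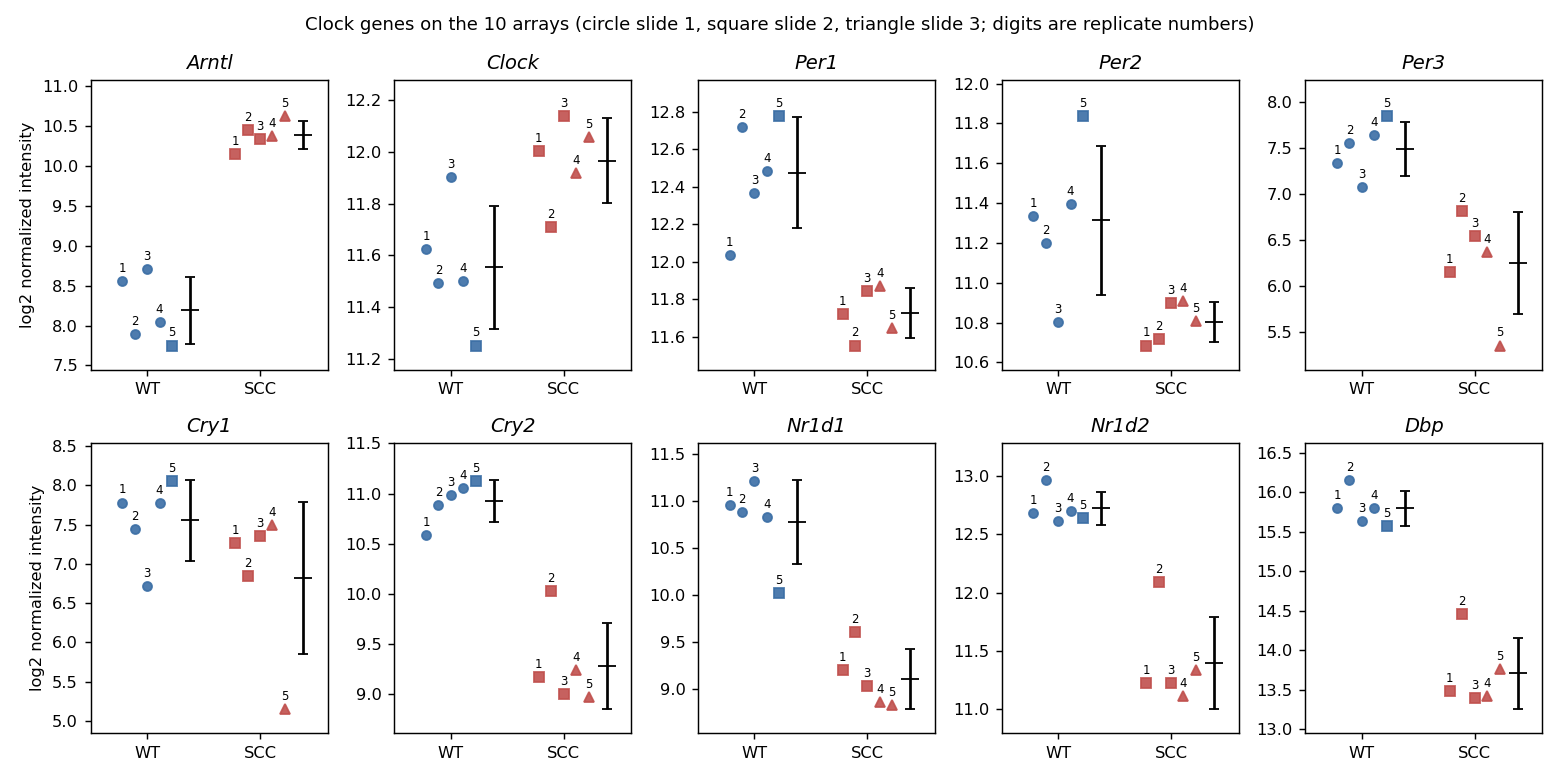
Log2 normalized intensity of each of the 10 clock genes (vertical axes, one range per gene) on the 5 WT and 5 SCC arrays. Points carry the replicate number and the shape of their slide, and black bars are the mean with its SD. Arntl is the one gene whose 5 SCC values, 10.15 to 10.62, all lie above its WT values, and in Per1, Per3, Cry2, Nr1d1, Nr1d2 and Dbp all 5 SCC values lie below.

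The stretch around the transcription start was searched for the elements at which clock factors act, since the genes that moved together are known targets of the same factors. Windows of 300 bases, 250 before and 50 after an annotated start, were taken from RefSeq (GRCm38.p6), which gave 13 windows for 9 of the 10 genes and none for Per2. They were searched on both strands for 6 motifs, the E-box CACGTG, the E-prime box CACGTT, the D-box TTATGTAA, the D-box variant TTATGCAA, the RORE core TAGGTCA and the cyclic AMP response element TGACGTCA, none of which overlapped another where they matched. Over all 32851 windows in the table the E-box was found in 7.15%, the E-prime box in 4.68%, the RORE core in 2.61%, the cyclic AMP response element in 1.79%, the D-box in 0.938% and its variant in 0.743%. The 6 windows below were chosen to show the 3 kinds of element, in genes that rose (Arntl, Nfil3), in genes that fell (Ciart, Per1, Per3) and in Cry1, which did not pass. Each is written 5' to 3' along the gene's strand with the matches in capitals. Arntl (chr7:113207261-113207560, plus strand) and Nfil3 (chr13:52980990-52981289, minus strand) hold the RORE core, Nfil3 on the opposite strand. Ciart (chr3:95882179-95882478, minus strand), Per1 (chr11:69098699-69098998, plus strand) and Cry1 (chr10:85185005-85185304, minus strand) hold E-boxes, and Per3 (chr4:151044616-151044915, minus strand) holds 2 D-boxes.
Arntl: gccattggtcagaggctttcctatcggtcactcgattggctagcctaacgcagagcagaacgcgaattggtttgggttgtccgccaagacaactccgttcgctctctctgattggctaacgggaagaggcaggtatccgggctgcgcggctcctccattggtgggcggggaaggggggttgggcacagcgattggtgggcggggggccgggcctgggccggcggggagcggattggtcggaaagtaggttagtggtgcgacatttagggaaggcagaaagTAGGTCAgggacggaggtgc
Nfil3: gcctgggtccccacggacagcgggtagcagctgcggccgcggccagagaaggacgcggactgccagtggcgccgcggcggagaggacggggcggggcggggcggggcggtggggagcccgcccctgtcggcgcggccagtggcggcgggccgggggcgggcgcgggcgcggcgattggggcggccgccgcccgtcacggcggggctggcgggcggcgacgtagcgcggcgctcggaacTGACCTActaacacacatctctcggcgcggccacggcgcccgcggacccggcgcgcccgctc
Ciart: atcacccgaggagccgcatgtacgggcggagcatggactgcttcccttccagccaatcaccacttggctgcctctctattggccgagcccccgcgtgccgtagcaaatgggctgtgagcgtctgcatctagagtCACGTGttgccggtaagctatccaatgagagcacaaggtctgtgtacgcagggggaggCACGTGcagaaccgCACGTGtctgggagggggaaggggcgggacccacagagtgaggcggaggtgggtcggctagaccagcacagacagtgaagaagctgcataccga
Per1: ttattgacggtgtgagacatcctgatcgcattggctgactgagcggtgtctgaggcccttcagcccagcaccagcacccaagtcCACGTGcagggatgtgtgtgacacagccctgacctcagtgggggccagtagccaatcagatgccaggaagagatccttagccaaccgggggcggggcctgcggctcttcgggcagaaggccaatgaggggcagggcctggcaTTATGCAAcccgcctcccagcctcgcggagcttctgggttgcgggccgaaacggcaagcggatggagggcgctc
Cry1: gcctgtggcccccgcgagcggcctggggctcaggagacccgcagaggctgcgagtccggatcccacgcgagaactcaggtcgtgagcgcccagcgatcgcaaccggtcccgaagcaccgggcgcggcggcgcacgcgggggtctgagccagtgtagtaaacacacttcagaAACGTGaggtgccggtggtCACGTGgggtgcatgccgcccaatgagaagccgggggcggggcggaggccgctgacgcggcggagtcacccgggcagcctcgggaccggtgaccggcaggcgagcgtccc
Per3: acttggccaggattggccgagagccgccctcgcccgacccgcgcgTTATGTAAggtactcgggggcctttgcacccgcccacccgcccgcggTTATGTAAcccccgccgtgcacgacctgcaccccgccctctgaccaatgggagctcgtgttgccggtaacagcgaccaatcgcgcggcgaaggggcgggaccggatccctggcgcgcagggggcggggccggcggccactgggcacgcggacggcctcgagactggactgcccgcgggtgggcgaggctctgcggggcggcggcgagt

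Arntl and Nfil3, both higher in SCC, were the only genes that held a RORE core among 19 clock genes with windows, at 30 bases after the start in Arntl and with its first base 12 bases before the start in Nfil3. Arntl and Per1 each had a second window, at another annotated start, and no motif was matched there. Of the same 19 genes, 5 held the E-box (Bhlhe41, Ciart, Cry1, Per1 and Tef). The E-prime box was in 4 (Cry1, Cry2, Nr1d1 and Rorb), the D-box in 2 (Per3 and Timeless) and the cyclic AMP response element in Hlf. Whether motif and direction went together was not tested. Ciart, which fell most among the clock genes measured here, held 3 E-boxes, at 116, 58 and 44 bases before the start. Per1 held an E-box 166 bases before its start and the D-box variant at 24 bases before it. In Cry1, an E-box stood at 60 bases and an E-prime box at 79 bases before the start, and Cry2 and Nr1d1 each held an E-prime box, at 166 and 28 bases. The D-boxes of Per3 began 205 and 158 bases before its start. No motif of the 6 was matched in the windows of Clock, Nr1d2 and Dbp. Such matches describe letters within a window and not binding.

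**Figure D2:**
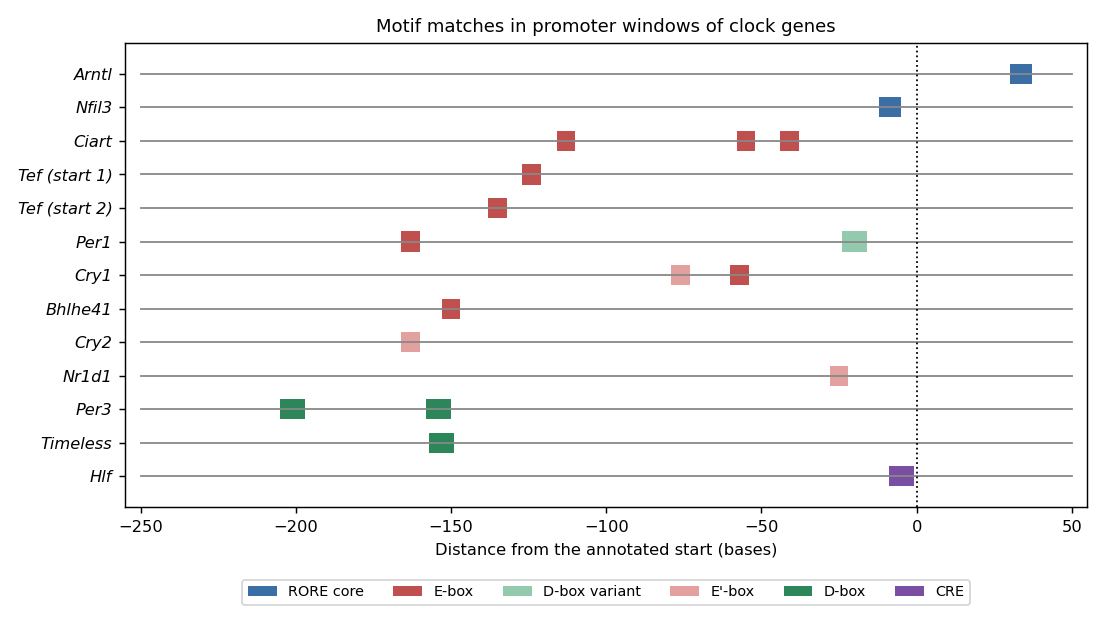
Motif matches (coloured blocks) in the promoter windows of clock genes that held at least 1, against the distance in bases from the annotated start (dotted line, upstream to the left), with each window drawn from 250 bases before to 50 bases after the start; Rorb is not drawn. The RORE core appears in Arntl and Nfil3, 3 E-boxes in Ciart and 2 D-boxes in Per3.

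Arntl encodes BMAL1, the partner without which the loop does not run. Its values on WT replicates 1 to 5 were 8.56, 7.90, 8.71, 8.04 and 7.75, and on SCC replicates 1 to 5 they were 10.15, 10.45, 10.35, 10.37 and 10.62. The groups did not overlap, and the gap from the highest WT array to the lowest SCC array exceeded the whole WT range of 0.96. Arntl stood at 8.19 ± 0.42 in WT and 10.39 ± 0.17 in SCC (SD, n = 5 each) and thus rose by 2.20 (SE 0.20, limma adjusted p 2.53e-05). An exact two-sided permutation test over the 252 splits of the 10 arrays gave 0.00794, the smallest p that this design allows. Of 12 other ways of processing, every one kept Arntl higher at an adjusted p below 0.05, with differences from 1.81 to 2.57.

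Clock, the DNA-binding partner of BMAL1, differed far less. Its values were 11.62, 11.49, 11.90, 11.50 and 11.25 in WT and 12.005, 11.71, 12.14, 11.92 and 12.06 in SCC. On 4 of the 5 SCC arrays Clock was above the highest WT array, and SCC replicate 2 fell among the WT values. The difference was 0.41 (SE 0.13, limma adjusted p 0.0281, exact permutation p 0.0159). The call for Clock depended on single arrays. It was lost on leaving out any of WT replicates 2, 4 and 5 or SCC replicates 1 and 3 (adjusted p from 0.0575 to 0.0655), and further probes of Clock gave 0.36 (adjusted p 0.0581) and 0.16 (adjusted p 0.605).

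The Period genes encode the repressors whose build-up closes the loop, and Per1 and Per2 also respond within hours to light and hormone signals. Per1 was at 12.04, 12.72, 12.37, 12.48 and 12.78 in WT and at 11.72, 11.55, 11.85, 11.87 and 11.65 in SCC. No SCC array reached the lowest WT array. It fell by 0.75 (SE 0.15, limma adjusted p 0.00233, exact permutation p 0.00794), a 1.68-fold difference. Per3, the Period gene least needed for the rhythm itself, was at 7.33, 7.55, 7.08, 7.65 and 7.85 in WT and at 6.16, 6.82, 6.54, 6.37 and 5.35 in SCC. Its groups were again apart, with SCC replicate 5 far below the other SCC arrays. Per3 fell by 1.24 (SE 0.26, limma adjusted p 0.00352), or 2.37-fold, without SCC replicate 5 it fell by 1.02, and with normexp background correction by 0.70.

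Per2 was the weakest of the 7 lower calls. The values were 11.33, 11.20, 10.80, 11.40 and 11.84 in WT and 10.69, 10.72, 10.90, 10.91 and 10.81 in SCC, so that WT replicate 3 lay inside the SCC values and only 2 SCC arrays were below the lowest WT array. The 5 tumours spanned 0.22 units and the 5 lungs 1.03. Per2 fell by 0.51 (SE 0.17, limma adjusted p 0.0305, exact permutation p 0.0317). The call was lost without WT replicate 1, 4 or 5 or SCC replicate 1 (adjusted p from 0.0504 to 0.0662), and with the replicate number as a block (adjusted p 0.0627). A second probe of Per2, between 5.62 and 5.85 in WT, had the opposite sign at 0.57 (limma adjusted p 0.188).

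Cryptochromes join the Period proteins in repressing CLOCK and BMAL1. Cry2 was at 10.59, 10.89, 10.99, 11.06 and 11.12 in WT and at 9.17, 10.02, 9.0, 9.24 and 8.96 in SCC. All 5 SCC arrays were below all WT arrays, with SCC replicate 2 closest to them. Cry2 fell by 1.65 (SE 0.20, limma adjusted p 0.000157), or 3.14-fold, and its second probe fell by 1.00 (adjusted p 0.0217). Cry1 was at 7.78, 7.44, 6.72, 7.78 and 8.06 in WT and at 7.27, 6.84, 7.36, 7.49 and 5.15 in SCC. The groups overlapped on every SCC array but replicate 5. The difference of Cry1 was -0.73 (SE 0.45, limma adjusted p 0.197, exact permutation p 0.159), with a second probe at -0.60 (adjusted p 0.354). Leaving out SCC replicate 5 brought the Cry1 value to -0.32 (adjusted p 0.331). Whether the Cry1 and Cry2 differences themselves differed was not tested.

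Nr1d1 and Nr1d2, which encode the REV-ERB repressors of Arntl, were both lower where Arntl was higher. Nr1d1 was at 10.96, 10.88, 11.21, 10.83 and 10.02 in WT and at 9.20, 9.60, 9.03, 8.86 and 8.83 in SCC. Nr1d2 was at 12.69, 12.97, 12.62, 12.70 and 12.64 in WT and at 11.23, 12.09, 11.23, 11.11 and 11.34 in SCC. Neither gene had an SCC array within its WT range. Nr1d1 fell by 1.68 (SE 0.23, limma adjusted p 0.000301) and Nr1d2 by 1.32 (SE 0.18, limma adjusted p 0.000293). Among further probes of Nr1d1, one fell by 0.94 (adjusted p 0.00404), and the other stood at -0.07 (adjusted p 0.763), so that the mean over the probes fell by 0.90. Blocking by slide put Nr1d1 at -0.74 (adjusted p 0.0912), because WT replicate 5, the only WT array on the shared slide, held the lowest WT value of Nr1d1.

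Dbp, a D-box activator and one of the most strongly cycling direct targets of CLOCK and BMAL1, had the largest fall of the 10 genes. Its values were 15.80, 16.16, 15.63, 15.79 and 15.57 in WT and 13.49, 14.46, 13.39, 13.42 and 13.77 in SCC. The highest SCC array was more than 1 unit below the lowest WT array. Dbp stood at 15.79 ± 0.23 in WT and 13.71 ± 0.45 in SCC (SD, n = 5 each), and it fell by 2.09 (SE 0.21, limma adjusted p 5.29e-05, exact permutation p 0.00794). In 12 other ways of processing the difference ran from -2.36 to -1.79, and all kept an adjusted p below 0.05.

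**Figure D3:**
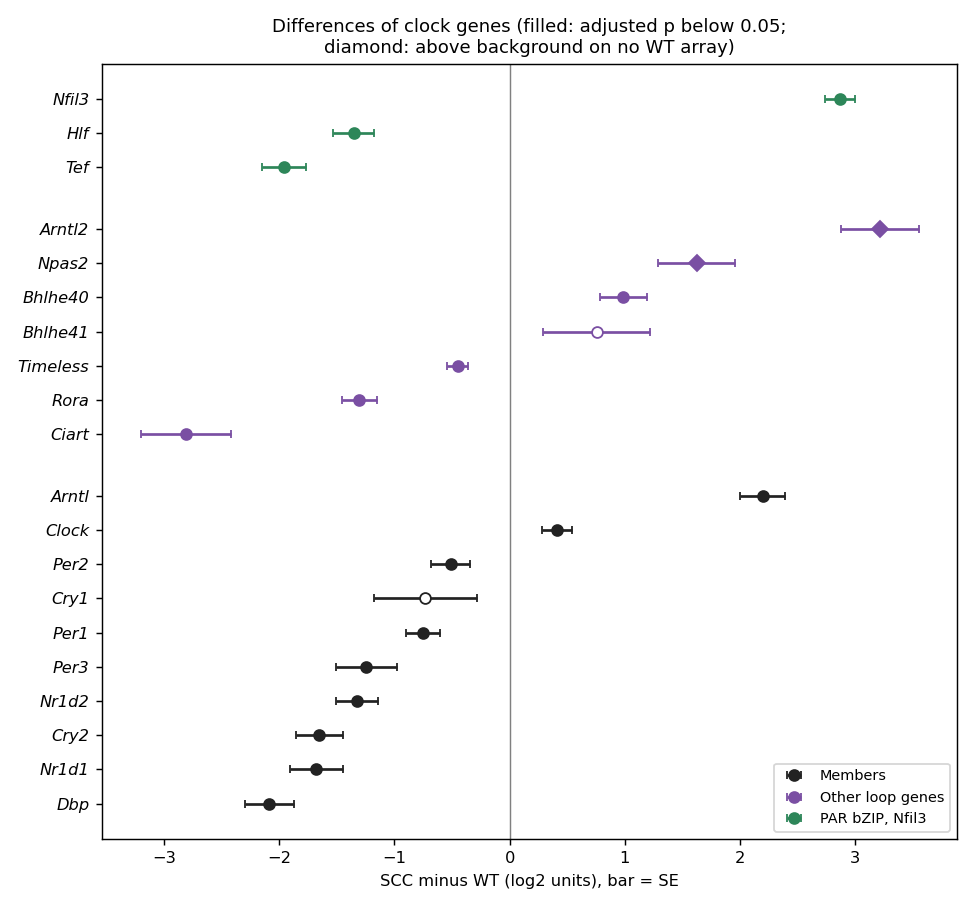
SCC minus WT differences in log2 units (horizontal axis) with their SE for the 10 clock genes (black), other genes of the loops (purple) and the PAR bZIP factors with Nfil3 (green). Filled points had a limma adjusted p below 0.05 and open points did not. Diamonds mark Arntl2 and Npas2, which were above background on no WT array. Their plotted differences are not bounds, and since the filter fixed them, the fill and SE of the diamonds do not stand for a test. Nfil3 at 2.87 and Dbp at -2.09 lie on opposite sides of 0.

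Other genes of the core and stabilising loops followed both signs. Of 8 such genes 7 were tested, but Arntl2 and Npas2 entered only through the tumours. Among the 5 measured in both groups 1 was higher, 3 were lower and 1 did not pass, beside 22.4% higher and 26.6% lower over all tested probes, and their median difference was -0.45. With Arntl2 and Npas2 included the median was 0.76. Arntl2 and Npas2, paralogs that can stand in for Arntl and Clock, were above background in every tumour but in none of the WT lungs, so that their difference is fixed by the filter and is given without a test. Set against the lowest signals above background in WT, Arntl2 was at least 2.92-fold higher and Npas2 at least 2.34-fold higher. These bounds hold for the processed intensity, and with normexp background correction the differences were smaller, at 0.66 log2 units for Arntl2 and 0.33 for Npas2. Bhlhe40, a repressor that competes for E-boxes, was between 11.59 and 11.90 in WT and between 11.99 and 13.14 in SCC, and rose by 0.99 (adjusted p 0.00313). Its relative Bhlhe41 was at 0.76 and did not pass (adjusted p 0.200). The value of Bhlhe41 rested on single arrays, at 1.11 without SCC replicate 2 (adjusted p 0.0297), 0.34 without SCC replicate 5 (adjusted p 0.356) and 0.29 when blocked by slide (adjusted p 0.828).

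Ciart, a repressor of the loop also known as Chrono, was at 10.23, 10.44, 9.68, 9.81 and 10.20 in WT and at 7.86, 8.07, 6.98, 7.59 and 5.82 in SCC. Its groups stood well apart. Ciart fell by 2.81 (SE 0.39, limma adjusted p 0.000327), or 7.0-fold. Rora, the activator that opposes the REV-ERB proteins, fell by 1.30 (adjusted p 0.000114), and Timeless, which in mammals also acts at replication forks, by 0.45 (adjusted p 0.00286). Rorb was not tested, since it was above background on SCC replicate 2 alone, at 7.58, and elsewhere lay between 1.72 and 2.36.

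At the D-box the activators and the repressor moved apart. Tef was at 13.67, 13.82, 13.51, 13.98 and 14.20 in WT and at 11.85, 12.50, 11.65, 11.59 and 11.81 in SCC, and fell by 1.96 (SE 0.19, limma adjusted p 4.47e-05). Hlf fell by 1.35 (SE 0.18, adjusted p 0.000216), so that all 3 activators that bind this element, Dbp included, were lower in the tumours. Nfil3, their repressor, was at 10.29, 10.36, 10.03, 10.19 and 10.09 in WT and at 13.21, 12.64, 13.16, 13.02 and 13.26 in SCC. No SCC array came within 2 units of a WT array. Nfil3 rose by 2.87 (SE 0.13, limma adjusted p 8.2e-07), or 7.30-fold, and it rose by 2.73 to 2.94 in 11 other ways of processing.

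Transcripts of proteins that modify or assist the clock factors passed the test at shares near that of all tested probes. Of 14 kinases, phosphatases and ubiquitin ligases that act on PER, CRY, REV-ERB or BMAL1, 2 were higher, 4 lower and 8 did not pass, with a median of -0.14. The share that passed, 42.9%, was near the 49.0% of all tested probes. Usp2, a deubiquitinase with a strong daily rhythm, was at least 2-fold different and fell by 2.37 (limma adjusted p 0.000188), and the other genes of this list that passed lay between -0.58 and 0.57. Named after their values were seen, these were Csnk1e (-0.56), Fbxw7 (-0.39) and Btrc (-0.58), lower, and the casein kinase 2 subunits Csnk2a1 (0.57) and Csnk2b (0.44), higher. Among 11 cofactors 2 were higher, 3 lower and 6 did not pass (45.5% passing), with a median of -0.08. Ezh2, a histone methyltransferase that is also a marker of dividing cells, rose by 1.16 (adjusted p 0.000147). Hdac3 (0.49), Ncor1 (-0.34), Kdm5a (-0.54) and Cipc (-0.73), a brake on CLOCK, also passed, and were likewise named afterwards.

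Among 8 output genes that cycle in many tissues, 1 was higher, 2 were lower and 5 did not pass (37.5% passing, beside 49.0% of all tested probes), with a median of -0.04. Tsc22d3 (GILZ), a glucocorticoid-induced anti-inflammatory protein, fell by 1.97 (limma adjusted p 2.48e-05), the tetraspanin Tspan4 fell by 1.02 (adjusted p 0.000682), and Leo1, a transcription elongation factor, rose by 1.93 (adjusted p 0.000118). Glucocorticoids also drive Per1, and of 7 glucocorticoid-responsive genes 2 were higher, 3 lower and 2 did not pass (71.4% passing). The metallothionein Mt2 rose by 2.63 (adjusted p 5.87e-05). The transcription factor Klf9 fell by 1.49 (adjusted p 0.00025), as did the glucocorticoid receptor Nr3c1 (adjusted p 6.35e-05), for which 1 WT array had no value. Sgk1 (0.65) and Errfi1 (-0.38), named after their values were seen, passed with smaller differences. Over the 48 genes of all these lists that were measured in both groups 9 were higher, 17 lower and 22 did not pass, with a median of -0.18. The share that passed, 54.2%, was near the 49.0% of all tested probes.

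Within the WT group the arrays did not stand in the same order for every clock gene. From high to low the order of the replicates was 3, 1, 4, 2 and 5 for Arntl and also for Clock, and 3, 1, 2, 4 and 5 for Nr1d1. For Per2, Per3 and Cry1 the ends were exchanged, with replicate 5 highest and replicate 3 lowest. Per1 and Cry2 were also highest on replicate 5 but lowest on replicate 1. Dbp and Nr1d2 were highest on replicate 2, with replicate 5 lowest for Dbp and replicate 3 lowest for Nr1d2. On WT replicate 3 the deviation from the group mean was 0.52 for Arntl, -0.51 for Per2, -0.41 for Per3 and -0.83 for Cry1. WT replicate 5 showed the reverse, with -0.44 for Arntl and 0.52 for Per2. WT replicate 5 was hybridised on another slide than the remaining WT arrays, and the part of slide or of hour of collection in this order was not tested.

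The tumours were closer together for some of these genes. Arntl spanned 0.47 units over the SCC arrays and 0.96 over the WT arrays, Per1 0.32 against 0.74, and Per2 0.22 against 1.03. Over all tested probes the spread ran the other way, with a median SD of 0.38 in SCC and 0.15 in WT. Cry2, Nr1d2 and Dbp were wider in SCC, with 1 array, SCC replicate 2, nearest to WT, and Per3 and Cry1 were wider with SCC replicate 5 at their lower end. SCC replicate 2 minus the WT mean was -1.33 for Dbp, and the mean of the other 4 tumours minus the WT mean was -2.28. The same differences were -0.63 and -1.5 for Nr1d2, -0.91 and -1.84 for Cry2, -1.18 and -1.80 for Nr1d1, -0.67 and -1.39 for Per3, and 0.15 and 0.48 for Clock. For Arntl they were 2.26 and 2.18, and for Cry1 -0.71 and -0.74, so that this array did not stand apart there. Per1, at -0.92 and -0.71, and Per2, at -0.60 and -0.49, lay farther from WT on this array.

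**Figure D4:**
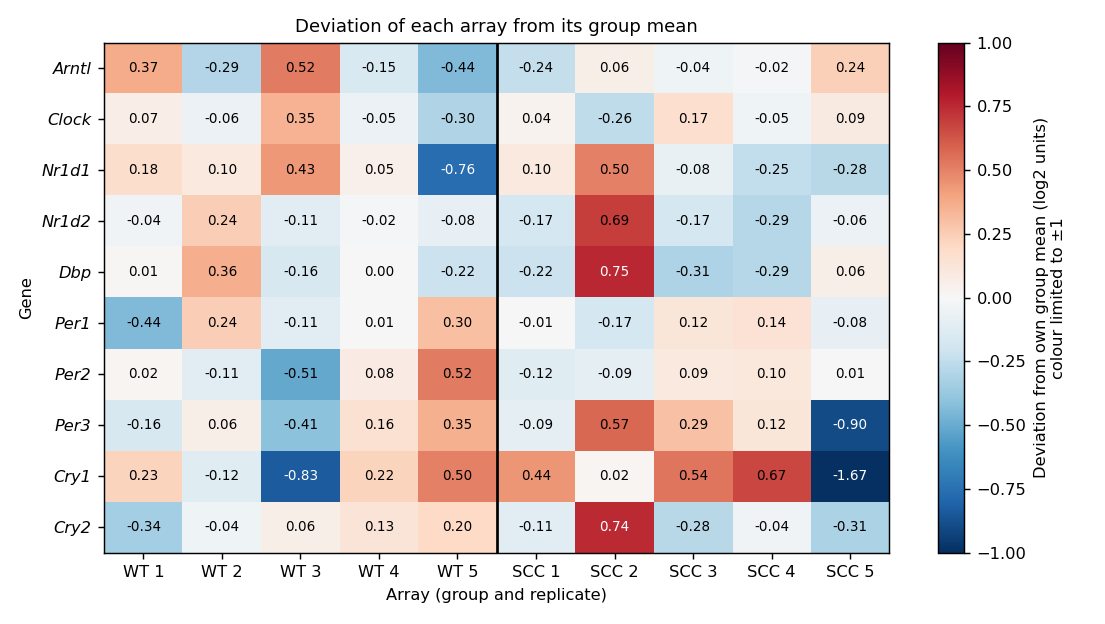
Deviation of each array from the mean of its own group, in log2 units, for the 10 clock genes (rows) on the 5 WT and 5 SCC arrays (columns); the colour scale ends at 1 unit either way and each cell prints its value. Arntl and Per2 have opposite signs on WT replicates 3 and 5, at 0.52 and -0.51 and at -0.44 and 0.52, and SCC replicate 2 is high for Dbp, Nr1d2 and Cry2.

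Over these 10 deviations, the genes most like Arntl among 14109 genes above background on all arrays were Purb (r = 0.93), Col3a1 (0.92), Chmp5 (0.90), Pak1ip1 (0.84) and Pcdh12 (0.83). For Dbp they were Actr8 (r = 0.99), Nr1d2 (0.97), Hspb2 (0.97), Hint2 (0.96) and Glis2 (0.96). Nr1d2 was thus the only clock gene among the nearest 5 of either. Against Arntl the other 9 clock genes had r = 0.68 (Clock), 0.54 (Nr1d1), 0.04 (Dbp), -0.03 (Nr1d2), -0.20 (Cry2), -0.55 (Cry1), -0.56 (Per3), -0.64 (Per2) and -0.77 (Per1). All of these values come from the same 10 libraries, lean on single arrays such as SCC replicate 2 for Dbp, and are given as descriptions without a test.

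The makeup of the samples differed along with these genes. Over all tested probes 22.4% were higher and 26.6% lower. All 6 squamous markers measured in both groups were higher in SCC, and Krt6a, Dsg3 and Sprr1b were above background on no WT array and are not counted. The summed log2 level of those 6 was 16.40 to 19.004 in SCC and 12.93 to 13.26 in WT. All 8 endothelial markers were lower (15.15 to 16.33 against 18.00 to 18.17), as were 5 of 6 club cell markers (18.22 to 19.96 against 20.07 to 20.39), and all 6 proliferation markers were higher. Of the other cell types, 5 of 7 alveolar type 2, 5 of 6 alveolar type 1, 4 of 6 T cell, 4 of 4 B cell, 4 of 5 smooth muscle and 5 of 6 cardiac muscle markers were lower, 3 of 6 neutrophil markers were higher, and fibroblast (2 higher, 3 lower of 6) and macrophage markers (2 and 2 of 6) went both ways. One club cell marker and 1 alveolar type 1 marker were higher. SCC replicate 2 was the tumour nearest to WT for Clock, Dbp, Nr1d1, Nr1d2, Cry2 and Per3, but not for Arntl, Cry1, Per1 or Per2. It had the lowest squamous sum at 16.40, where the other 4 tumours had 18.74 to 19.004. Its endothelial and club cell sums were the highest of the tumours, at 16.33 and 19.96. Its proliferation sum was 13.44, where the other 4 had at least 14.70, and its neutrophil sum was 14.05, below the WT range of 14.74 to 15.55, where the other 4 had 16.73 to 16.88. In such bulk samples fewer cells of a type and less RNA per cell cannot be told apart, and the part of cell makeup in the clock gene differences was not tested. On SCC replicate 5, 90.2% of probes were well above background, against 71.0% to 74.5% on the other arrays. Without SCC replicates 2 and 5, 8 of the 10 clock genes passed in place of 9, and 19731 of all probes in place of 14878. With a 2-fold difference 6 of the 10 passed, as with all arrays.

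**Figure D5:**
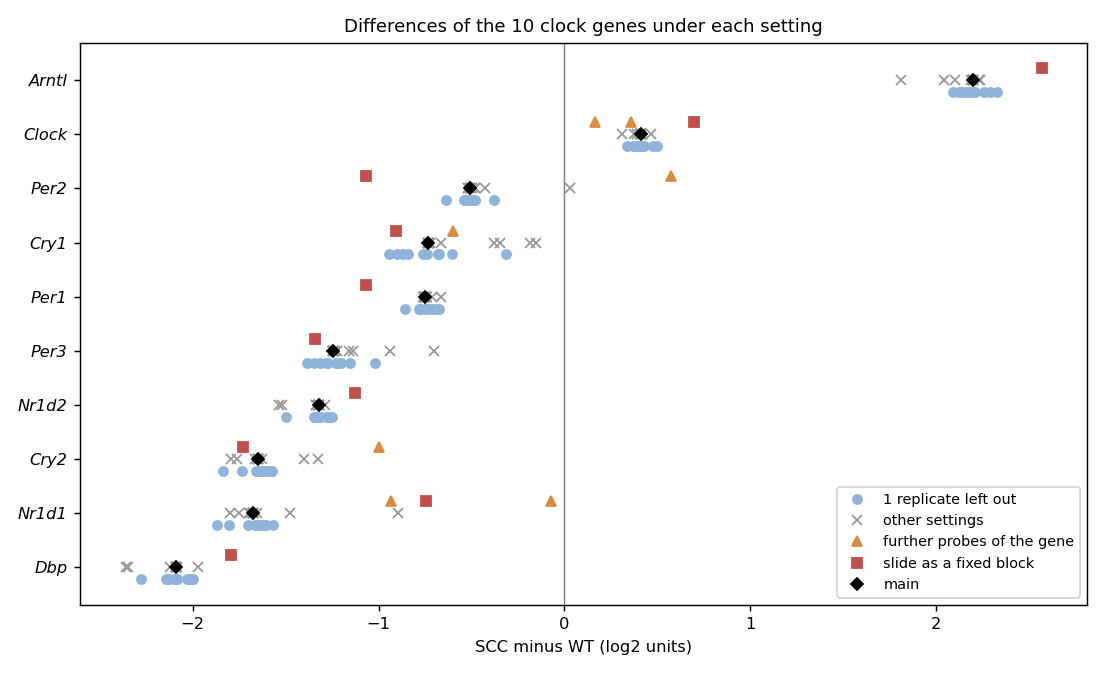
SCC minus WT differences of the 10 clock genes in log2 units (horizontal axis) as reported (black diamonds), with 1 array left out (blue points), with slide as a fixed block (red squares), for further probes of the same gene (orange triangles) and under the remaining settings (grey crosses). Arntl stays between 1.81 and 2.57 and Dbp between -2.36 and -1.79, while Per2 lies on both sides of 0.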

How the data were processed

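RNA from 5 WT lungs and 5 SCC was hybridised to single-colour Agilent 4x44K whole mouse genome arrays, 1 array per sample, and groups were taken from the sample titles. The authors read the scans with Agilent Feature Extraction (version 12 per the submitters' processing notes). The deposited scanner files hold a background-subtracted, linear processed intensity for each spot, with median signals and flags. A matrix of log2 values deposited by the authors followed log2 of the quantile-normalized processed intensity with r of at least 0.9999 on every array.

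Control spots and outlier-flagged spots were dropped, repeated spots averaged on the log2 scale, and 41174 probes quantile-normalized. Quantile normalization and the log2 scale follow the study's methods. The 30374 probes tested were those well above background on 4 or 5 arrays of WT, of SCC or of both. Differences are SCC minus WT from two-sided fits with lmFit and eBayes (limma 3.58.1, R 4.3.3) over 10 arrays without a covariate, adjusted by Benjamini-Hochberg over all tested probes. All adjusted p-values come from limma. The one-way model of the study's methods was run as an alternative. The fit was tested on simulated data. Single genes were also compared by an exact two-sided permutation test. No p was adjusted over the clock genes alone. The limma p-values set the difference between groups against the spread within groups over these 10 samples, and the number of arrays limits their precision. For a probe above background on no WT array, the fold is the SCC mean over the mean of, per WT array, whichever was higher, its own signal or the lowest signal above background.

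Accessions were paired with symbols through a RefSeq table (GRCm38.p6), which named 28223 of 41174 probes (68.5%). The array design was annotated on another build, so coordinates are given for promoter windows only. Windows were not held for Per2 and Bhlhe40. The normexp alternative used the median spot signal. WT replicates 1 to 4 shared a slide, as did WT replicate 5 with SCC replicates 1 to 3, and SCC replicates 4 and 5.

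The clock genes and the other gene lists were chosen with earlier results of these data known. Another 2 listed genes are not reported here and enter no list count. The genes named are the 10 clock genes, all genes of the loop and PAR bZIP lists, from the other lists up to 3 genes in each direction that passed with a 2-fold difference, and the 5 genes most like Arntl and like Dbp. Genes of the other lists that passed with under a 2-fold difference were named after their values were seen. Marker lists covered squamous, club, alveolar type 1 and 2, endothelial, neutrophil, macrophage, T, B, fibroblast, smooth and cardiac muscle and dividing cells. Alternatives were another background correction, another scaling, the authors' matrix, looser and stricter filters, slide and replicate number as blocks, array weights, other probes and the omission of each array.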

Additional observations from a re-analysis of the deposited data

Results flagged for a closer look

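In each gene's 5 WT and 5 SCC values, the gap from the most extreme array to its nearest neighbour was set against the whole range of the group, and 7 of 53 groups examined exceeded Dixon's critical value of 0.71 for 5 samples. Chance flags about 1 in 20 groups, and several genes here share 1 array. Of these 7, 4 lay on SCC replicate 2. That array was far above the other tumours for Cry2 (0.74), Nr1d2 (0.768) and Tef (0.714), and far below them for Leo1 (0.878). SCC replicate 5 was far below the others for Cry1 (0.722). In WT, replicate 2 was the highest for Nr1d2 (0.76) and the lowest for Leo1 (0.763).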

How the results depend on the processing

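Slide moved the counts most. With slide as a fixed block, which compares 1 WT array with 3 SCC arrays on the shared slide, 5 of the 10 clock genes passed in place of 9, 15 genes of the other clock lists in place of 28 (both counts over lists that include Arntl2 and Npas2), and 3814 of all probes in place of 14878. Clock (0.70, adjusted p 0.0909), Per3 (-1.34, 0.0758), Nr1d1 (-0.74, 0.0912) and Nr1d2 (-1.13, 0.0711) then no longer passed. Among the other loop, D-box and 2-fold genes measured in both groups, Bhlhe40, Timeless and Leo1 lost their call, and the cause was not tested. Npas2, counted among the 28 but not measured in WT, also dropped out, with a difference of 0.83 in place of 1.63. As a random block, slide left 9 genes passing. With a 2-fold difference 5 of the 10 genes passed, in place of 6, with the slide block, with normexp (Per3 at -0.70), with scaling to the 75th percentile (Per3 at -0.94) and for the mean over the probes of a gene (Nr1d1 at -0.90), where 7 passed in all. With the slide block these were Arntl, Per1, Per2, Cry2 and Dbp, so that Per1 and Per2 were gained.

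Leaving out 1 array at a time gave 7 to 9 clock genes passing, 6 with a 2-fold difference each time, and 12625 to 17865 probes. Of the other lists 26 to 33 genes passed, a count that again includes Arntl2 and Npas2, which entered only through the tumours. Clock and Per2 account for the losses among the 10 genes. In the methods' one-way model both missed an unadjusted p below 0.01, though both passed there with Benjamini-Hochberg adjustment at 0.05. Per2 had the opposite sign on its further probe (0.57, adjusted p 0.188) and as the mean over its probes (0.031, adjusted p 0.909).

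Scaling to the 75th percentile moved the median difference of all tested probes from -0.09 to 0.03 and the share of higher calls from 45.6% to 51.5%, and 9 clock genes passed with unchanged directions. WT and SCC animals with the same replicate number were different mice, and the correlations of their deviations ran from -0.10 to 0.01, so the numbers do not pair the samples. With the replicate block 8 clock genes, 25 genes of the other lists (Arntl2 and Npas2 among them) and 12374 probes passed. The stricter filter gave no value for Arntl2 and Npas2.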
